A study of Mus musculus with 4 samples.

Results

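The 56 genes described here encode lineage transcription factors that Polycomb complexes are known to mark in stem cells, and they were taken by name from the 24428 genes counted in 4 RNA-seq libraries of mouse embryonic stem cells. All 56 had a row in the tables. They fall into 13 groups by DNA-binding family, from 8 Pax genes to pairs such as Nr2f1 and Nr2f2. The study asked what a heterozygous G784E change in Smarca4 does to the transcriptome; Smarca4 is the ATPase of the BAF chromatin remodelling complex. The G784E cells carried 1 Smarca4 allele as a wild-type GFP fusion and the other as a V5 fusion with the G784E change, and the WT cells carried the same GFP fusion beside a wild-type V5 fusion. Both lines were of strain 129SvEv, at passages 15 to 20, untreated, and cultured with 15% serum and LIF, the cytokine that maintains mouse stem cells. Each group had libraries numbered 1 and 2. The labels do not say whether these came from separate cultures or clones, and the p-values below therefore reflect library-to-library spread that may be only technical.

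Polycomb repressive complexes hold developmental genes silent in stem cells. Complex 2 methylates histone H3 at lysine 27, and complex 1 ubiquitylates histone H2A and compacts the chromatin. The promoters concerned are typically CpG islands that carry the activating H3 lysine 4 mark as well, a state called bivalent, and the genes are switched on in the lineages they specify. BAF complexes have been reported to oppose Polycomb at some such sites in stem cells, and this need not hold at all of them. Factors of this kind work at low abundance even in the lineages that use them, and in undifferentiated cells their transcripts are expected to be rare.

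RefSeq promoter sequences of build GRCm38.p6 were at hand for 39 of the 56 genes, matched by symbol. In the 250 bases before the transcription start, these 39 held a median of 17 CG dinucleotides, taking the richest start of each gene, and 6 over all 27025 genes with such a sequence. The range was from 1 (Nr2f2) to 40 (Barx1). At least 10 CG were present in 32 of the 39, 82.1%, against 40.2% of all genes. Nkx2-9 and Isl1 are shown because theirs were the 2 levels per length that lay above nearly all receptor genes in every library. Pax2 is shown because it had the smallest p in the main test among those of the 56 that could be tested. Sequences run 5′ to 3′ on the gene's strand, with each CG in capitals.
Nkx2-9, chr12:56613285-56613534, minus strand, 13 CG: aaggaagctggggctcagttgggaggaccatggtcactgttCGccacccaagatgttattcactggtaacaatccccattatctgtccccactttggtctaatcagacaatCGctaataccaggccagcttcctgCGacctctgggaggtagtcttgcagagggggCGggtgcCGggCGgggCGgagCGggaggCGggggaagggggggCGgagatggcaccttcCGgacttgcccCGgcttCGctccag
Isl1, chr13:116309689-116309938, minus strand, 33 CG: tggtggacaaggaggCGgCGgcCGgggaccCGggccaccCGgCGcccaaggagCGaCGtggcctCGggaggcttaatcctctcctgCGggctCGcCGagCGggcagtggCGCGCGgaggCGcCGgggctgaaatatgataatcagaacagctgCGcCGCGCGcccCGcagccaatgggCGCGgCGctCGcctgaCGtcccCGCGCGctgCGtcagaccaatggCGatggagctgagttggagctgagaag
Pax2, chr19:44756656-44756905, plus strand, 25 CG, the richest of its 3 listed starts: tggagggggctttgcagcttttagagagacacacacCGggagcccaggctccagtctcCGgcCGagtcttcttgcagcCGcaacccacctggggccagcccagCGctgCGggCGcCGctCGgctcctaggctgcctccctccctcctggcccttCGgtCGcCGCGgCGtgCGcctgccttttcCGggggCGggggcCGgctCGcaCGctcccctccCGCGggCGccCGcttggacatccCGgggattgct

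Depth limited what could be seen. Total gene counts were 6226145 and 8895433 in G784E and 7027108 and 10083442 in WT. Levels are in CPM, counts scaled to library size by TMM, and a single count was worth between 0.102 CPM (WT 2) and 0.164 CPM (G784E 1). The stem cell marker Pou5f1 stood at 188 and 229 CPM in G784E and 176 and 239 CPM in WT. Smarca4 had 3868 and 3580 CPM in G784E and 2423 and 2553 CPM in WT (log2 fold change 0.58, SE 0.19; edgeR's quasi-likelihood test, adjusted p = 0.119); the 2 alleles cannot be told apart in these counts. Olfactory and vomeronasal receptor genes, 1462 in all, belong to sensory neurons and served as the background level. Together they took 805 and 350 CPM in G784E 1 and 2 and 738 and 231 CPM in WT 1 and 2. Library 1 was above library 2 by 2.3 times in G784E and 3.19 times in WT.

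The 56 factor genes had few counts. Their total over all 4 libraries ran from 2 counts (Nkx2-5 and Lbx1) to 169 (Isl1), with a median of 27. The highest value of any of them was 9.0 CPM, for Pax6 in G784E 1. In G784E 1 and 2, 11 and 25 of the 56 had fewer than 3 counts, and in WT 1 and 2, 6 and 15 did. Only Pax6, Pax8, Tbx4, Tbx15, Nkx2-9, Isl1, Nr2f2 and Wt1, 8 of the 56, reached 1 CPM in every library.

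**Figure D1:**
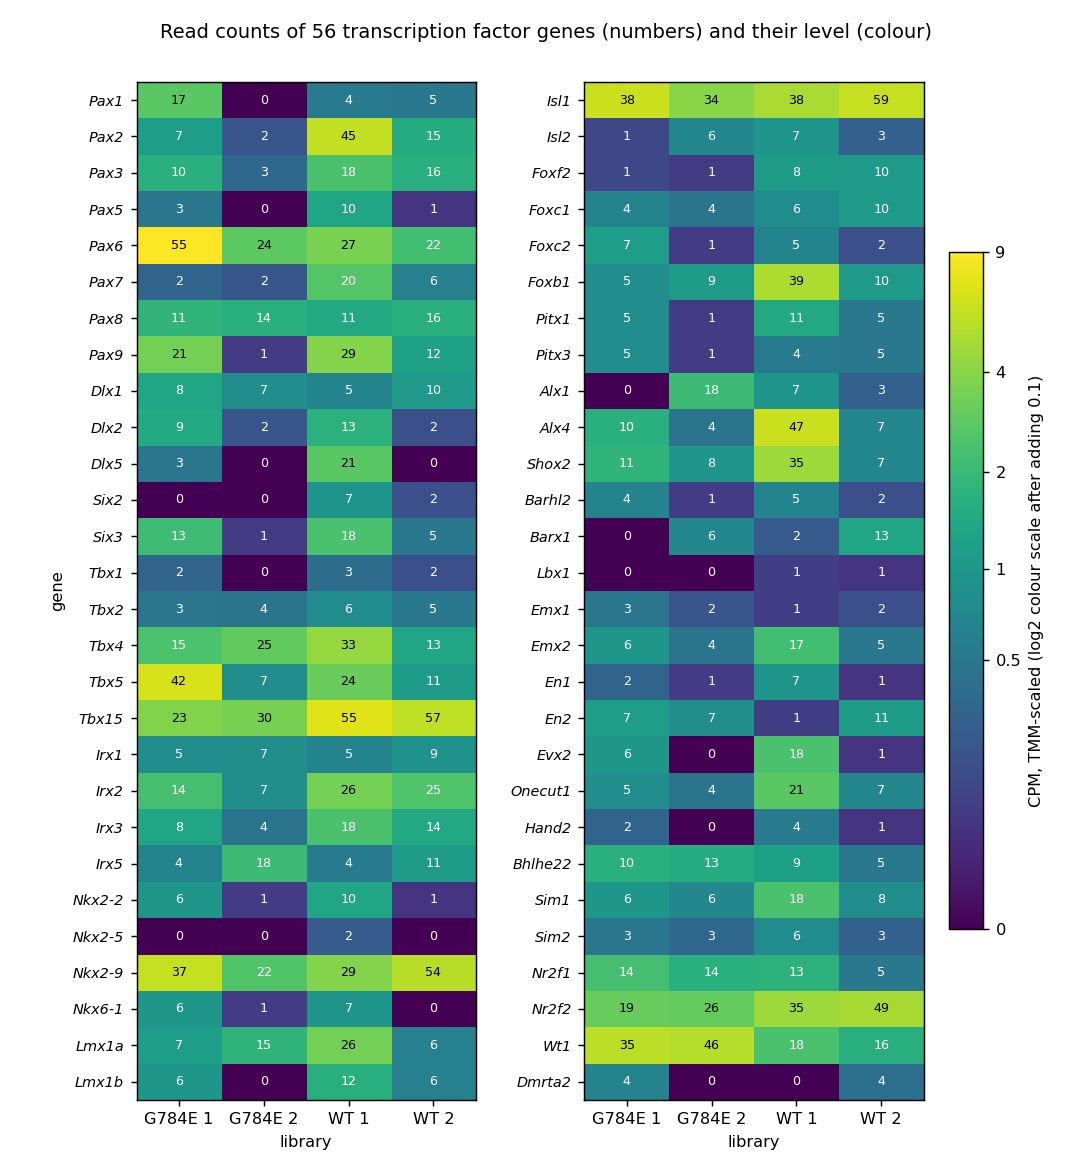
Read counts of the 56 genes (numbers in the cells) in the G784E and WT libraries, coloured by TMM-scaled CPM on a log2 colour scale after adding 0.1. Most cells hold fewer than 20 counts, and Isl1, Tbx15, Nkx2-9, Nr2f2, Pax6 and Wt1 have the largest totals.

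Levels were compared between genes per kilobase of exon, with lengths from GENCODE M21 transcripts that have a RefSeq match. On this scale the median of the 56 genes was 0.329 and 0.0957 CPM per kb in G784E 1 and 2 and 0.475 and 0.174 in WT 1 and 2. The median over the 1432 receptor genes with a length was 0.176 and 0.102 CPM per kb in G784E and 0.267 and 0.0366 in WT, and 40 and 27 of the 56 factors lay above it in G784E and 40 and 52 in WT. The median factor was thus above the median receptor gene in every library but G784E 2. The mean over the receptor genes was higher than their median, at 0.48 and 0.205 CPM per kb in G784E and 0.439 and 0.136 in WT. The 95th percentile of the receptor genes was 1.88 and 0.836 CPM per kb in G784E and 1.55 and 0.578 in WT. Of the 56 factors, 41 lay above that percentile in no library and 12 in a single library. Tbx15 lay above it in every library but G784E 1, and 2 genes, Nkx2-9 and Isl1, in all 4.

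Nkx2-9, a homeodomain factor of the ventral neural tube, had 4.79 and 2.05 CPM per kb in G784E and 3.03 and 4.34 in WT. Isl1, a LIM homeodomain factor of motor neurons, heart progenitors and pancreas, had 2.47 and 1.59 CPM per kb in G784E and 1.99 and 2.38 in WT. For both genes the groups overlapped. Pou5f1 on the same scale had 138 and 168 CPM per kb in G784E and 129 and 175 in WT, so the best detected of these factors were far below a gene that defines the cell type.

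**Figure D2:**
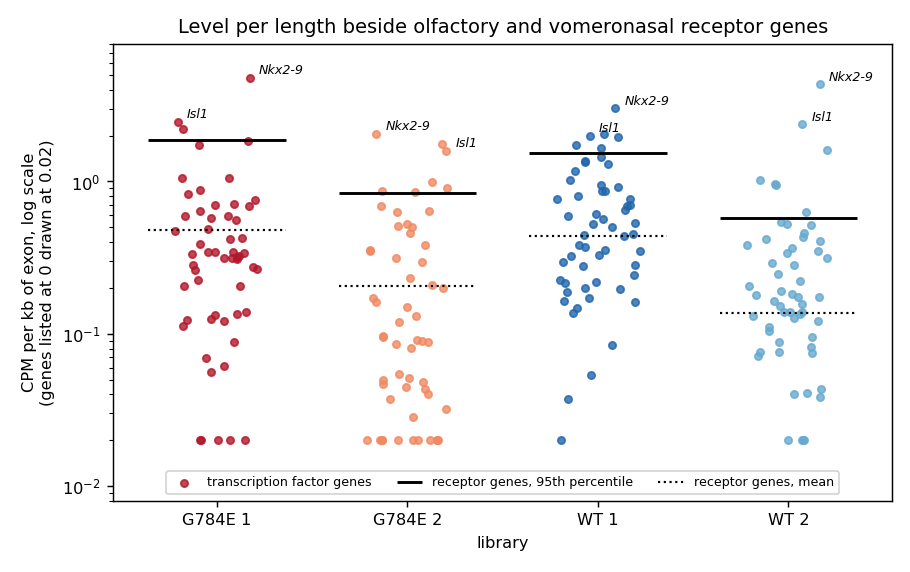
Level per kilobase of exon (log axis) of each of the 56 genes, 1 point per gene, in each library, with the mean (dotted) and the 95th percentile (solid) of olfactory and vomeronasal receptor genes. Points for Nkx2-9 and Isl1 lie above the solid line in all 4 libraries, and most other points lie below it.

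None of the factors passed the test between G784E and WT. Only 21 of the 56 had enough reads to be tested, and 0 were called lower and 0 higher by edgeR (quasi-likelihood test, Benjamini-Hochberg adjusted p under 0.05). Over all 15763 tested genes, 1.89% were called lower and 0.672% higher. An unadjusted p under 0.05 was reached by Pax2 and Wt1, 2 of the 21, beside 1831 of all 15763 tested genes, a share near the background. DESeq2 and limma-voom also called 0 of them, with 2 and 1 at an unadjusted p under 0.05. DESeq2 gave no adjusted p for Pax2, Pax9, Tbx4, Tbx5, Irx2 and Alx4, among others possibly, so it could not call these. The SE of the log2 fold change ran from 0.53 (Isl1) to 1.61 (Dlx2) among the tested genes, so a 2-fold change amounted to less than 2 SE in each of them, and these counts do not show that the genes were unaffected.

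The direction of the unpassed differences leaned towards lower values in G784E. The median log2 fold change of the 21 tested genes was -0.38, beside 0 over all tested genes. It was -0.86 without G784E 1 and -0.99 without WT 2, but 0.20 without G784E 2 and 0.53 without WT 1. Leaving out a library puts the replicate numbers out of balance between the groups, and the receptor genes were higher in both libraries numbered 1. The values were therefore also read within each number, as G784E 1 against WT 1 and G784E 2 against WT 2, comparisons of single libraries that carry no test.

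Added over all 56 genes, with no filter, the counts came to 90.0 CPM in G784E 1 and 115 in WT 1, and to 49.1 CPM in G784E 2 and 59.0 in WT 2. The ratio of G784E to WT was 0.782 within number 1 (95% interval 0.702 to 0.872) and 0.833 within number 2 (0.732 to 0.946), exact intervals that cover counting error only. The receptor genes had the opposite direction, with ratios of 1.09 (1.05 to 1.13) and 1.52 (1.44 to 1.6). As a share of the receptor sum, the 56 factors came to 11.2% in G784E 1 and 15.6% in WT 1, and to 14.0% in G784E 2 and 25.6% in WT 2. This share does not depend on the scaling of the libraries, and it was lower in the G784E library within both numbers. It also falls where the receptor sum rises, so it does not measure the factors alone.

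Gene by gene, 26 of the 56 (46.4%) were lower in G784E within both numbers and 8 (14.3%) higher within both, and 22 were neither. Of all 23193 genes with at least 1 count, 29.6% were lower within both and 26.4% higher; of the 1325 receptor genes with a count, 16.5% were lower within both and 24.8% higher. When the groups were compared without regard to number, 11 of the 56 had both G784E libraries below both WT libraries, 19.6% against 17.9% of all genes with a count, a share near the background. These were Pax2, Pax7, Six2, Tbx2, Tbx15, Irx2, Irx3, Foxf2, Foxc1, Lbx1 and Nr2f2. The reverse held for Pax8, Emx1, Bhlhe22 and Wt1, 4 of the 56 (7.14%), against 16.1% of all genes. A difference of 2-fold or more within both numbers, with a prior count of 2 added, was present for Pax2 and Foxf2 among the lower genes, 2 of 56, and for Wt1 among the higher. The shares over all genes were 3.14% and 1.2%.

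**Figure D3:**
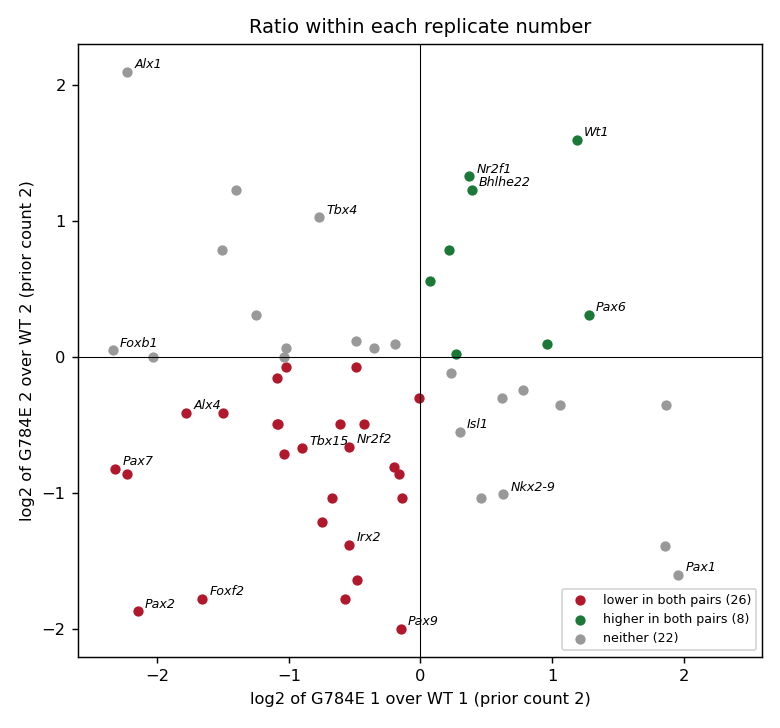
Log2 ratio of G784E over WT within libraries numbered 1 (horizontal) and within those numbered 2 (vertical) for each of the 56 genes, with a prior count of 2. Points are coloured by whether the gene was lower in both (26), higher in both (8) or neither (22), with Pax2 and Foxf2 at the lower left and Wt1 at the upper right.

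WT 1 held many of the highest single values. Of the 56 genes, 34 had their highest level in WT 1, 16 in G784E 1, 2 in G784E 2 and 4 in WT 2. Receptor genes were highest about as often in G784E 1 (41.4%) as in WT 1 (40.2%). The same shares over all genes were not computed, so the pattern cannot be called particular to the 56. Genes of other cell types differed as well: the summed level of 13 primitive endoderm markers was 637 and 623 CPM in G784E and 5780 and 6100 CPM in WT, with 11 of the 13 called lower and all detected in every library. The summed level of 10 neural markers was 322 and 328 CPM in G784E and 218 and 213 CPM in WT, mostly from Stmn2. Stmn2 alone had 218 and 254 CPM in G784E and 122 and 136 CPM in WT. Sox1 and Tubb3 were also higher in both G784E libraries than in both WT libraries. Ncam1 went the other way, at 15.1 and 11.1 CPM in G784E and 26.3 and 19.4 CPM in WT. So did Map2, at 10.1 and 9.54 CPM in G784E and 13.3 and 12.1 CPM in WT. For the other neural markers the groups overlapped. Of 9 tested neural markers, Stmn2 was the 1 called higher (edgeR, adjusted p = 0.0146), 0 were called lower, and 3 had an unadjusted p under 0.05. Mesoderm markers, 10 in all, summed to 40.3 and 29.3 CPM in G784E and 47.5 and 38.0 in WT, with Mesp1 at 0 in 3 of the 4 libraries and 0 of 6 tested genes called. Trophectoderm markers, 9 in all, summed to 63.0 and 57.2 CPM in G784E and 106 and 111 CPM in WT. Eomes, Krt8 and Krt18 were the 3 called lower. Tfap2c went the other way, at 32.4 and 30.3 CPM in G784E and 19.7 and 20.2 CPM in WT, and for Cdx2 the groups overlapped. Fibroblast markers summed to 89.7 and 70.4 CPM in G784E and 83.3 and 55.6 CPM in WT, and 0 of 7 tested were called. None of 10 stem cell markers was called, with 1 at an unadjusted p under 0.05. The part of these cell types in the factor levels was not tested, and in such bulk samples fewer cells of a type and less RNA per cell cannot be told apart.

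The Pax genes encode paired-box factors that pattern the neural tube, somites, eye, kidney and thyroid. Their sum was 20.6 CPM in G784E 1 and 21.7 in WT 1, and 5.42 CPM in G784E 2 and 9.44 in WT 2. Pax2, a factor of kidney, optic stalk and midbrain-hindbrain boundary, had 7 and 2 counts in G784E (1.15 and 0.236 CPM) and 45 and 15 counts in WT (5.94 and 1.52 CPM). The groups did not overlap, and WT 1 alone held 45 of its 69 counts. The fitted difference was -2.45 on the log2 scale (SE 1.14; edgeR, adjusted p = 0.4). It had ratios of 0.193 (0.0733 to 0.431) within number 1 and 0.155 (0.0172 to 0.665) within number 2.

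Pax6, the master regulator of eye development that is also used in forebrain and pancreas, had 55 and 24 counts in G784E (9.0 and 2.83 CPM) and 27 and 22 counts in WT (3.57 and 2.23 CPM). Only G784E 1 stood apart, and the log2 fold change of 1.02 (SE 0.68) did not pass (edgeR, adjusted p = 0.682). Pax9, of the pharyngeal pouches and teeth, had 21 and 1 counts in G784E and 29 and 12 in WT, a difference between the numbers larger than that between the groups (log2 fold change -0.53, SE 1.17; edgeR, adjusted p = 0.99). Exons of Pax9 overlap Slc25a21 on the other strand in GENCODE M21, and the strand setting of the counting is not given in the sources used here. Pax7, a factor of muscle precursors and neural crest, had 2 and 2 counts in G784E and 20 and 6 in WT, too few to be tested. Pax3, its close paralogue, had 10 and 3 counts in G784E and 18 and 16 in WT. Pax5, of B cells and midbrain, had 3 and 0 counts in G784E and 10 and 1 in WT. The thyroid and kidney factor Pax8 had 1.8 and 1.65 CPM in G784E and 1.45 and 1.62 CPM in WT, groups set apart by less than the worth of 1 count. Pax1, of the sclerotome, had 17 counts in G784E 1 and 0 in G784E 2, and 4 and 5 in WT.

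T-box factors act in limb, heart and craniofacial development. Tbx15, which acts in skeleton and skin patterning, was the second most counted of all 56 genes, with 23 and 30 counts in G784E (3.76 and 3.53 CPM) and 55 and 57 counts in WT (7.26 and 5.79 CPM). Both WT libraries were above both G784E libraries, and the libraries within each group were close. The log2 fold change was -0.84 (SE 0.55; edgeR, adjusted p = 0.671), with ratios of 0.518 (0.304 to 0.857) within number 1 and 0.611 (0.379 to 0.966) within number 2. Tbx4, the hindlimb and lung factor, had 2.45 and 2.94 CPM in G784E and 4.36 and 1.32 CPM in WT, so that its direction differed between the numbers (log2 fold change -0.06, SE 0.88; edgeR, adjusted p = 1). Tbx5, the forelimb and heart factor, had 42 and 7 counts in G784E and 24 and 11 in WT, with both libraries numbered 1 above both numbered 2 (log2 fold change 0.83, SE 0.95; edgeR, adjusted p = 0.902). Tbx1 and Tbx2 had at most 6 counts in any library. The family sum was 13.9 CPM in G784E 1 and 16 in WT 1, and 7.77 CPM in G784E 2 and 8.93 in WT 2, a ratio of 0.87 within each number whose intervals (0.652 to 1.16 and 0.623 to 1.21) include 1.

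Iroquois genes lie in clusters and pattern neural tube, heart and limb. Irx2 had 14 and 7 counts in G784E (2.29 and 0.825 CPM) and 26 and 25 counts in WT (3.43 and 2.54 CPM), without overlap (log2 fold change -0.95, SE 1.00; edgeR, adjusted p = 0.88). Irx3 also did not overlap, at 1.31 and 0.471 CPM in G784E and 2.38 and 1.42 CPM in WT. Irx5, the neighbour of Irx3 in its cluster, had 4 and 18 counts in G784E and 4 and 11 in WT, with groups that overlapped and a higher level in G784E within both numbers. Irx1 had 5 and 7 counts in G784E and 5 and 9 in WT. The ratios of Irx3 were 0.551 (0.207 to 1.33) within number 1 and 0.331 (0.0795 to 1.06) within number 2. Those of Irx5 were 1.24 (0.231 to 6.65) within number 1 and 1.9 (0.849 to 4.45) within number 2. All 4 intervals include 1, and the difference between these genes was not tested.

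The NK homeodomain genes and their LIM counterparts mark ventral neural tube, heart and pancreas. Nkx2-9 had 37 and 22 counts in G784E (6.05 and 2.59 CPM) and 29 and 54 counts in WT (3.83 and 5.48 CPM). It was higher in G784E within number 1, with a ratio of 1.58 (0.946 to 2.67), and lower within number 2, with a ratio of 0.473 (0.274 to 0.789), and its log2 fold change was -0.12 (SE 0.63; edgeR, adjusted p = 1). Isl1 had 38 and 34 counts in G784E (6.22 and 4.0 CPM) and 38 and 59 counts in WT (5.02 and 5.99 CPM), the largest total of the 56 (log2 fold change -0.12, SE 0.53; edgeR, adjusted p = 1). The paralogue Isl2 had between 1 and 7 counts per library. The cardiac factor Nkx2-5 had 2 counts, both in WT 1, and the pancreatic and motor neuron factors Nkx2-2 and Nkx6-1 had 10 or fewer in any library. Lmx1a and Lmx1b act in roof plate, dopaminergic neurons and limb. Lmx1a had 7 and 15 counts in G784E and 26 and 6 in WT, and Lmx1b had 6 and 0 counts in G784E and 12 and 6 in WT.

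Forkhead genes act in mesoderm, gut and brain. Their sum was lower in G784E within both numbers, at 2.78 CPM in G784E 1 and 7.66 in WT 1 and at 1.77 CPM in G784E 2 and 3.25 in WT 2. The ratios were 0.363 (0.198 to 0.632) within number 1 and 0.544 (0.274 to 1.03) within number 2. Foxb1, a factor of hypothalamus and hindbrain, accounted for 39 of the 58 counts in WT 1, and had 5 and 9 counts in G784E and 10 in WT 2. Foxf2, of gut and palate mesenchyme, had 1 and 1 counts in G784E and 8 and 10 in WT. Its ratios were 0.155 (0.00349 to 1.16) within number 1 and 0.116 (0.00267 to 0.816) within number 2, and it had too few counts to be tested. Foxc1, of mesoderm and neural crest, had 4 and 4 counts in G784E and 6 and 10 in WT, and its paralogue Foxc2 had 7 and 1 counts in G784E and 5 and 2 in WT.

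Among paired-like factors, WT 1 stood alone. The sum of Pitx1, Pitx3, Alx1, Alx4 and Shox2 was 5.07 CPM in G784E 1 and 13.7 in WT 1, and 3.77 CPM in G784E 2 and 2.74 in WT 2. The ratio was 0.369 (0.239 to 0.556) within number 1 and 1.38 (0.798 to 2.39) within number 2. Alx4, a craniofacial and limb factor, had 10 and 4 counts in G784E and 47 and 7 in WT (log2 fold change -1.72, SE 1.13; edgeR, adjusted p = 0.675). Shox2, of limb and sinoatrial node, had 11 and 8 counts in G784E and 35 and 7 in WT. Pitx1 and Pitx3, of hindlimb and midbrain, had 11 or fewer in every library. Alx1 was the exception in the other direction, with 0 and 18 counts in G784E and 7 and 3 in WT. Single libraries thus carried these differences.

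The Dlx genes and the sine oculis homologues Six2 and Six3 act in forebrain, branchial arches, eye and kidney. Dlx5 had 21 counts in WT 1 and 3 in G784E 1, and 0 in G784E 2 and WT 2. Six2, the factor of nephron progenitors, had 0 and 0 counts in G784E and 7 and 2 in WT. Six3, of forebrain and eye, had 13 and 1 counts in G784E and 18 and 5 in WT. Dlx1 and Dlx2 had between 2 and 13 counts per library with groups that overlapped, and exons of Dlx1 overlap the antisense gene Dlx1as.

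**Figure D4:**
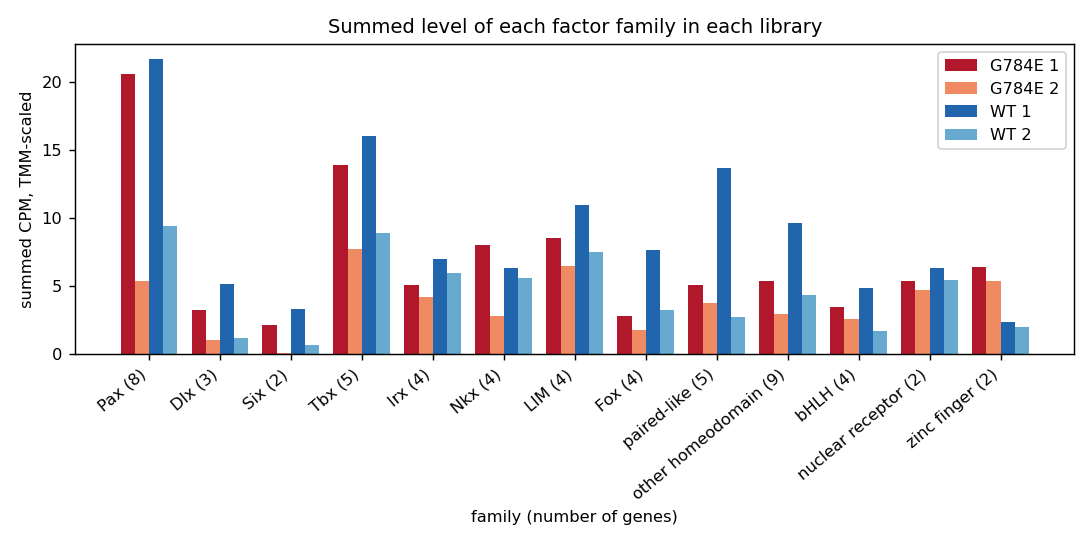
Summed TMM-scaled CPM of each of the 13 families in the 4 libraries, with the number of genes in brackets. Bars of the libraries numbered 1 are higher than those numbered 2 of their group in all 13 families, the paired-like bar is highest in WT 1, and the zinc finger group (Wt1 and Dmrta2) is higher in both G784E libraries.

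The remaining 9 homeodomain genes, among them the brain regional factors Emx1, Emx2, En1, En2 and Barhl2, had 21 or fewer counts in every library. Of these 9, 6 were lower in G784E within both numbers and Emx1 was higher. Their sum was 5.4 CPM in G784E 1 and 9.64 in WT 1, and 2.94 CPM in G784E 2 and 4.37 in WT 2. Onecut1, of liver and pancreas, had 5 and 4 counts in G784E and 21 and 7 in WT. Barx1, of stomach and teeth, had 0 and 6 counts in G784E and 2 and 13 in WT. The groups overlapped for both genes. Of the helix-loop-helix genes, Bhlhe22, of retinal and cortical neurons, had 1.64 and 1.53 CPM in G784E and 1.19 and 0.508 CPM in WT, higher in G784E without overlap and not past the test. Hand2, Sim1 and Sim2 had 18 or fewer counts in any library.

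The orphan nuclear receptors Nr2f1 and Nr2f2, also called COUP-TF1 and COUP-TF2, act in cortex, veins and heart. Nr2f2 had 19 and 26 counts in G784E (3.11 and 3.06 CPM) and 35 and 49 counts in WT (4.62 and 4.97 CPM), without overlap and with little spread within a group. Its log2 fold change was -0.64 (SE 0.66; edgeR, adjusted p = 0.879), and the ratios were 0.673 (0.363 to 1.21) within number 1 and 0.616 (0.367 to 1.01) within number 2. Nr2f1 was higher in G784E within both numbers, at 2.29 and 1.65 CPM in G784E and 1.72 and 0.508 CPM in WT, with overlapping groups. Exons of both genes overlap a transcript on the other strand in GENCODE M21.

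Wt1, a zinc-finger factor of kidney, gonad and mesothelium, was the 1 gene of the 56 with a level at least 2-fold higher in G784E within both numbers. It had 35 and 46 counts in G784E (5.73 and 5.42 CPM) and 18 and 16 counts in WT (2.38 and 1.62 CPM), averaging 5.57 ± 0.218 CPM in G784E and 2.0 ± 0.532 CPM in WT (SD, n = 2 each). The groups did not overlap, and the G784E libraries were closer to each other than the WT libraries were. The log2 fold change was 1.48 (SE 0.71; edgeR, adjusted p = 0.424), which did not pass over all genes. The ratios were 2.41 (1.33 to 4.52) within number 1 and 3.34 (1.85 to 6.31) within number 2. Per length, Wt1 lay above the 95th percentile of receptor genes in G784E 2 and not in the other libraries. Dmrta2, a DM-domain factor of the cortex, had 4 and 0 counts in G784E and 0 and 4 in WT.

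Other members of the same families and other regulators give the setting. A list of further genes from these families had 54 in the tables, of which 24 were tested. In that list the T-box gene Eomes, of primitive streak and trophoblast, was the 1 called. It stood at 3.6 and 6.24 CPM in G784E and 16.1 and 16.9 CPM in WT (log2 fold change -1.72, SE 0.36, edgeR adjusted p = 0.00642). The median of the 24 was -0.10. A second list, of regulators known as Polycomb targets, had 31 tested genes. Of these, 6 were called lower and 0 higher, with a median of -0.61. The forkhead gene Foxq1 was placed in this list and was among the 6. It had 4.42 and 0.825 CPM in G784E and 10.3 and 11.1 CPM in WT. The endoderm factors Gata4, Gata6, Sox17 and Sox7 were among the 6; Gata4, Gata6 and Sox17 are also in the primitive endoderm list, and Eomes is in the trophectoderm list. Gata6 had 2.29 and 2.59 CPM in G784E and 33.1 and 32.4 CPM in WT (log2 fold change -3.73, SE 0.32; edgeR, adjusted p = 4.05e-08), and Gata4 had 7.2 and 4.0 CPM in G784E and 52.2 and 64.1 CPM in WT (-3.41, SE 0.29; adjusted p = 3.94e-08 in edgeR). These called genes stood at 10.7 to 58.1 CPM on average in WT, and none of the 56 factors averaged above 6.53 CPM there. Of 34 tested Polycomb subunit genes, Pcgf5 was the 1 called, at 6.55 and 2.83 CPM in G784E and 16.8 and 12.4 CPM in WT (log2 fold change -1.66, SE 0.41; edgeR, adjusted p = 0.024), and the median was 0.09.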

How the data were processed

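Per the labels' protocols, RNA was extracted with QIAzol, captured on poly(dT) and converted to DNA; the labels nevertheless list the library source as genomic. Each library has its own table of unnormalised gene counts, as the authors deposited it. The submitters' processing notes name build mm9 and the tools Bowtie2 2.1.0, CASAVA 1.8.2, DESeq2 and HTSeq; neither their order nor the annotation and strand mode is given in the sources used here. The summary rows, which held 83.3% to 88.7% of all counts listed for a library, were left out. Of the gene counts that remained, 10% to 16% belonged to Rn45s. The 2 libraries of a group differed by more than sampling noise (chi-square per degree of freedom 15.4 in G784E and 9.22 in WT).

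The genes, families and comparison lists were chosen with earlier results of these data known. Counts were fitted with edgeR 4.0.16 (R 4.3.3; TMM, filterByExpr with a minimum count of 10 and total of 15, quasi-likelihood test, group as the single term, 2 residual degrees of freedom). Benjamini-Hochberg adjustment ran over 15763 genes, with a threshold of 0.05. CPM values use the TMM-scaled library sizes. Ratios within a replicate number carry exact conditional binomial 95% intervals. These reflect counting error alone, because each compares single libraries and holds no spread between libraries. Reads copied by PCR are not separate molecules, so even the counting error may be understated. Fitted fold changes are given for factors with an unadjusted p under 0.05 and for the 12 with the highest mean CPM, and for up to 2 called genes per direction of each other list. GENCODE M21 and the promoter sequences belong to GRCm38, not mm9, and were matched by symbol; exons of 16 of the 56 genes overlap another gene there. Alternatives were a replicate block, DESeq2 1.42.0, limma-voom (limma 3.58.1), scaling by RLE or by upper quartile, dropping the filter or tightening it (a total of 50 counts, with 1 CPM in 2 libraries), removal of Rn45s, and each library left out with the tested genes kept; the lone library of a group is then assumed to vary like the other group. The procedures were tested on simulated data.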

Additional observations from a re-analysis of the deposited data

How the results depend on the processing

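None of the 56 factors passed under any of the alternatives run for the test. A gene to which DESeq2 gave no adjusted p was counted as not passing. Among the 12 named genes, 131 of 144 refitted values kept their direction without passing, and 13 changed sign. Pax2, Wt1, Tbx15, Irx2 and Nr2f2 kept theirs in all: Pax2 ran from -3.89 to -1.16 and Wt1 from 1.22 to 1.77 with a library left out. The ranges with a library left out crossed 0 for Pax6 (-0.02 to 1.65), Pax9 (-4.24 to 0.51), Tbx4 (-0.68 to 1.03), Tbx5 (-1.34 to 1.75), Nkx2-9 (-0.83 to 0.40), Isl1 (-0.44 to 0.20) and Alx4 (-2.82 to 0.53). Tbx4 was also above 0 in limma-voom (0.35) and with the replicate block (0.14). The cause was not tested.

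With a library left out, the median of the tested factors ran from -0.99 to 0.53. Genes called lower then ran from 156 to 532 and called higher from 29 to 307. Factors with G784E wholly below WT ran from 13 to 36 and wholly above from 6 to 16. Fewer libraries must then be ordered, so these are not comparable with the 11 and 4 over all 4 libraries. The counts below were 31 without G784E 1 and 36 without WT 2, but 15 without G784E 2 and 13 without WT 1. Those above were 6 and 8, and 16 and 14, in the same order. The cause of this unevenness was not tested. Limma-voom called 186 genes higher. With a prior count of 0.5, 7 factors were 2-fold lower within both numbers in place of 2. The share over all genes was not computed at that prior, so the 7 cannot be read against a background. Against vomeronasal receptor genes alone, 6 factors exceeded the 95th percentile in all 4 libraries in place of 2.

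With the replicate block, 658 genes were called lower and 546 higher, and the median of the tested factors was -0.21. The lowest adjusted p among them was 0.0621 (Pax2, edgeR; 0.0621 to 1 over its alternatives; DESeq2 gave none). Differences between numbers 1 and 2 correlated between the groups across all tested genes (r = 0.505) and less across the tested factors (r = 0.268). With 2 numbers this does not establish pairing.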
